A study of Mus musculus with 23 samples.

Results

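Scavenger receptors were followed here as a set of 9 genes, Mrc1, Cd163, Stab1, Lyve1, Msr1, Marco, Cd36, Scarb1 and Colec12, chosen by symbol from the 32285 genes of the expression matrix. The study injected mice intravenously with fluorescent antibodies at 45 mg/kg and took the brain 24 h later, without olfactory bulb, cerebellum, pons and medulla. ATV-TfR is an antibody with an engineered Fc part that binds the human transferrin receptor, and it was given to TfR mu/hu knock-in mice. ATV-CD98hc binds the human CD98 heavy chain and was given to CD98hc mu/hu knock-in mice, while control IgG, which has no brain target, was given to C57BL/6J mice. All 3 antibodies carried the dye AF647 and the LALAPG Fc mutations. For all mice the labels give an age of 12 weeks and also one of 3.3 months, which do not match exactly. Dissociated cells, kept with actinomycin D and anisomycin, were sorted by dye into a negative bin and low, medium and high bins, whose limits came from the tertiles of dye-positive cells under ATV-TfR and were applied to all treatments. About 30% of cells were dye-positive under ATV-TfR, 20% under ATV-CD98hc and 1% under control IgG, per the labels. A pool joined the cells of 1 male and 1 female mouse. Each treatment had 2 pools with 1 library per bin, except that the negative bin of control IgG was represented by replicate 2 alone. The 23 libraries form 12 groups of treatment and bin. Treatment and genotype coincide, so their parts cannot be told apart.

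Scavenger receptors are a loose family of membrane proteins that bind modified lipoproteins, glycoproteins and debris and carry them into the cell. In the brain they are best known from border-associated macrophages, the perivascular, meningeal and choroid plexus macrophages that lie outside the parenchyma and take up macromolecules from blood and cerebrospinal fluid. Mrc1 encodes the mannose receptor, Cd163 the receptor for haemoglobin bound to haptoglobin, Stab1 the clearance receptor stabilin-1, and Lyve1 a hyaluronan receptor that marks one kind of perivascular and meningeal macrophage. Msr1 and Marco encode class A receptors, Cd36 and Scarb1 class B receptors for fatty acids and lipoproteins, and Colec12 a collectin of stromal and endothelial cells.

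Of 234026 cells kept, 3233 formed a border macrophage-like class in 1 cluster, led by Ms4a7, Mrc1, Pf4, F13a1, Aoah and the MHC class II genes H2-Eb1, H2-Aa and H2-Ab1. All 9 receptor genes were left out of the genes used for clustering and of every marker list. Of 10 marker genes of border macrophages, at most 1 was at 0 in any group of libraries, and their summed level lay between 2406 and 7251 CPM (UMIs scaled to a total of 1000000). Depth ranged from 1861238 to 90307818 UMIs (unique molecules) and from 519 to 19342 kept cells per library. Across libraries, 7598 barcode sequences were shared, by 15335 cells. The pool control IgG replicate 2 stood apart within the class: it held 249 of the 332 cells of sub-cluster M2, 135 of 136 of M8 and all 21 of M9, sub-clusters with few border macrophage markers. Calls that rest on control IgG high and low bins are therefore also given without each pool. With 2 pools per group, all groups of a class were fitted together, and p-values rest on a spread between pools shared by these groups. With 1 pool left out, each group of that treatment holds at most 1 library. Its spread is then assumed to be that of the other groups.

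The 250 bases before the annotated starts of Mrc1, Cd163 and Stab1 are shown here as 3 of the 4 receptors called from negative to high in ATV-TfR with the pool as a block. The other, Colec12, is not shown, and the call of Cd163 was lost without either pool of ATV-TfR and that of Stab1 without replicate 1, as given with their values. They come from RefSeq on GRCm38.p6, whose start of Mrc1 lies further along the gene than in GENCODE, the source of the gene positions given later, so the last bases of its stretch fall inside the latter. They are written 5′ to 3′ along the gene, and carry in capitals each GGAA or TTCC, the core of ETS factors such as PU.1 on either strand.
Mrc1, chr2:14229164-14229413 (plus strand): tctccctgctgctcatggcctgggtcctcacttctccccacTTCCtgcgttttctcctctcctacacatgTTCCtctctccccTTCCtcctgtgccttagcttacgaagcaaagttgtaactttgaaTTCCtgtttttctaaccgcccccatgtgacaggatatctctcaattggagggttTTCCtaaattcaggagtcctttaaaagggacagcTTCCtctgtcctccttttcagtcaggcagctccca
Cd163, chr6:124304401-124304650 (plus strand): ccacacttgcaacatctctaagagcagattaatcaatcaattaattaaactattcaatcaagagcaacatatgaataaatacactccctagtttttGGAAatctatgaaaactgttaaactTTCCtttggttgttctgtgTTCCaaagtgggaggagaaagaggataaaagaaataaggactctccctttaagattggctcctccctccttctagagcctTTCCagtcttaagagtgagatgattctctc
Stab1, chr14:31168642-31168891 (minus strand): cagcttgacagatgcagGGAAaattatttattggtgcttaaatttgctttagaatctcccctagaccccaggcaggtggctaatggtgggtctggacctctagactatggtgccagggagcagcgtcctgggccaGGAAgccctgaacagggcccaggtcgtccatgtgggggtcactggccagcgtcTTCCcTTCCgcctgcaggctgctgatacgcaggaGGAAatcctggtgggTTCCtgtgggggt
The stretch before Mrc1 holds 6 such cores, that before Cd163 holds 4 and that before Stab1 holds 6. A core was present in 93.4% of 32851 mouse promoters of the same length, so the count sets none of them apart. The longer PU.1 motif GAGGAAG, which contains the GGAA core, matched 2 times before Mrc1 on either strand and 0 times before Cd163 and Stab1, and was found in 10.6% of all promoters.

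Of the 9 genes, 7 had their highest level among the named classes in border macrophage-like cells, Marco among them on 5 UMIs alone. Levels are CPM of the UMIs summed over a class and pool, given as mean ± SD over 6 pools (5 for astrocyte-like, smooth muscle-like and oligodendrocyte-like cells), and describe classes that were themselves clustered from these cells. Mrc1 (chromosome 2, 14229392 to 14332057, plus strand, GRCm38) reached 1638 ± 268 CPM there, from 1235 to 1973 over the pools, and 12.5 CPM in microglia-like cells. Of all Mrc1 UMIs in kept cells, 88.6% lay in this class, which held 1.38% of the cells. Cd163 (chromosome 6, 124304656 to 124330527, plus strand) stood at 209 ± 71.3 CPM against 2.89 CPM in smooth muscle-like cells, the class next in order. Lyve1 (chromosome 7, 110850607 to 110863239, minus strand) stood at 86.9 ± 29.6 CPM and at 2.35 CPM in fibroblast-like cells. In none of these 3 genes did the pools of the next class overlap with those of border macrophage-like cells.

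Msr1 (chromosome 8, 39581685 to 39642673, minus strand) stood at 98.2 ± 16.3 CPM in border macrophage-like and at 2.29 CPM in microglia-like cells. Cd36 (chromosome 5, 17781690 to 17888801, minus strand) stood at 143 ± 43.0 CPM, with 4.55 CPM in ependymal-like cells next among the named classes. Some leukocytes of an unnamed cluster stood above the border macrophage-like means of Msr1 and Cd36, as given at the end. Stab1 (chromosome 14, 31139013 to 31168641, minus strand) was broader. It stood at 1097 ± 155 CPM in border macrophage-like cells, at 235 ± 44.1 CPM in microglia-like cells, the resident phagocytes of the parenchyma, and at 49.1 ± 8.95 CPM in endothelial-like cells, whose pools overlapped with those of pericyte-like cells (24.2 CPM). Of all Stab1 UMIs, 45.6% lay in endothelial-like, 25.5% in border macrophage-like and 22.5% in microglia-like cells. Marco (chromosome 1, 120474538 to 120505024, minus strand), a receptor of macrophages in spleen and lung, gave 9 UMIs in all kept cells, 5 of them in border macrophage-like cells, and is not followed further.

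The other 2 genes belonged to vessel and stromal classes. Scarb1 (chromosome 5, 125277087 to 125341094, minus strand), the receptor for high-density lipoprotein, was highest, among the named classes, in endothelial-like cells at 140 ± 15 CPM. Pericyte-like cells followed at 98.9 ± 12.7 CPM, then ependymal-like cells at 39.0 and border macrophage-like cells at 36.5 CPM, and the lowest class was choroid plexus epithelial-like cells at 10.1 CPM. Pericyte-like libraries also carried endothelial RNA, with summed endothelial markers at 300 to 21273 CPM. Its part in the Scarb1 and Stab1 levels of this class was not tested. Colec12 was highest in fibroblast-like cells at 848 ± 124 CPM and in pericyte-like cells at 523 ± 148 CPM, whose pools overlapped. Border macrophage-like cells (107 ± 21.5 CPM), smooth muscle-like cells (85.9 CPM) and astrocyte-like cells (37.8 ± 3.20 CPM) came next, and microglia-like cells were lowest of the classes named here at 2.07 CPM.

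**Figure D1:**
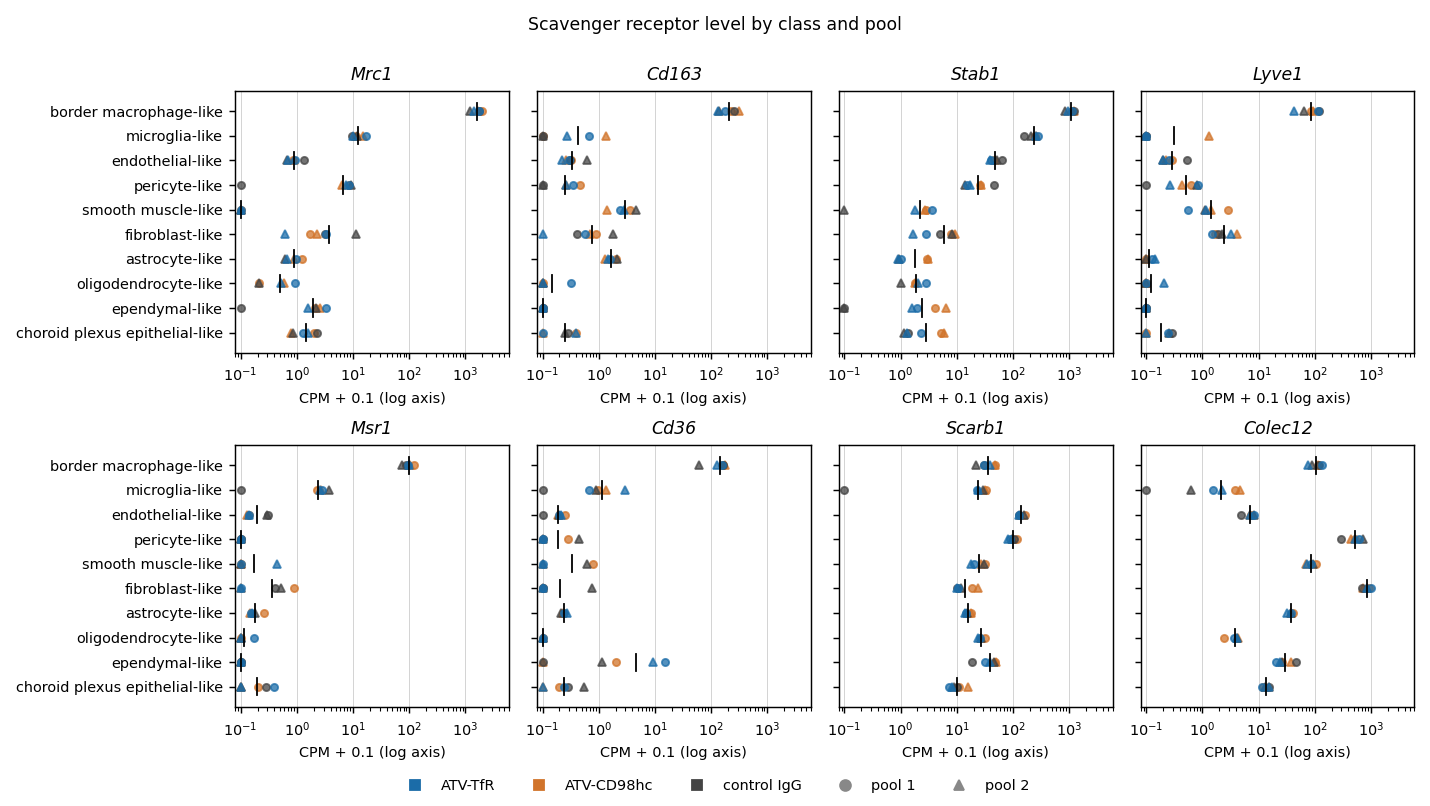
Level of 8 scavenger receptors (CPM + 0.1, logarithmic axis) in 10 cell classes. Points are pools of 2 mice, coloured by treatment and shaped by pool, and the black bar is the mean over pools. Among the classes shown, Mrc1, Cd163, Lyve1, Msr1 and Cd36 have 1 high class. Stab1 steps down from border macrophage-like to microglia-like and endothelial-like cells, and Scarb1 and Colec12 peak in vessel and stromal classes. Unnamed clusters, leukocytes among them, are not shown.

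Shares of cells with a UMI were set beside a class that should lack the genes. In border macrophage-like cells, with a median of 2281 UMIs, a UMI of Mrc1 was seen in 77.3% of cells, of Stab1 in 76.0%, of Cd163 in 25.4%, of Cd36 in 20.9%, of Msr1 in 19.9%, of Colec12 in 15.3% and of Lyve1 in 8.38%. Oligodendrocyte-like cells, which should lack these receptors and were deeper at a median of 5719.5 UMIs, gave 0.09% for Mrc1, 1.01% for Stab1 and 1.38% for Colec12, and 1 cell in 7400 each for Cd163, Lyve1 and Msr1. Scarb1 had a UMI in 7.83% of border macrophage-like and 13.7% of the deeper oligodendrocyte-like cells, while its level was 36.5 CPM in the former and 27.2 CPM in the latter, and no order is read from these shares. In endothelial-like cells 38.8% had a Scarb1 UMI. With each border macrophage-like cell thinned to 1000 UMIs, 22.1% of 3002 cells showed none of the 9 receptors, 22.6% showed 1, 26.5% showed 2, 17.2% showed 3 and 8.43% showed 4.

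The genes whose levels ran most closely with each receptor over 62 sums of class and pool are listed next. These correlations of log2(CPM + 1) share libraries and describe class patterns. Mrc1 ran with H2-Ab1 (r = 0.957), Cybb (0.956) and Sh2d1b1 (0.948), and Cd163 with Cd300ld (0.961), Ms4a4a (0.960) and Mgl2 (0.960). Lyve1 ran with the chemokine genes Ccl8 (0.956) and Pf4 (0.954) and with Ms4a4a (0.953). Stab1 ran with Lyl1 (0.977), Tm6sf1 (0.952) and Arhgap25 (0.946), Msr1 with Gm8369 (0.989), Slamf7 (0.987) and Ccr2 (0.987), and Cd36 with Pla2g2d, Clec12a and Slamf7 (0.949 each). Scarb1 ran with Mrtfb (0.886), Polk (0.834) and Vwf (0.823), and Colec12 with Cped1 (0.865), Akr1b8 (0.858) and Chp2 (0.851).

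Within border macrophage-like cells, sub-clusters were set out along the best known axis of these cells, between macrophages rich in MHC class II and macrophages rich in Folr2 and F13a1. Of 9 sub-clusters, 3 large ones are described. M1 (692 cells) had Cd74 at 23575 CPM, H2-Aa at 8893 CPM and the monocyte receptor gene Ccr2 first among its leading genes. M4 (772 cells) had Cd74 at 790 CPM, Folr2 at 297 CPM and F13a1 at 2765 CPM. M3 (1011 cells) lay between, with Cd74 at 6370 CPM, Folr2 at 17.6 CPM and F13a1 at 581 CPM. M1 met a share of 0.3 of the border macrophage marker list, as M2 did, against 0.5 in M3 and 0.9 in M4. By the rule used to name clusters, M1 taken alone stayed unnamed.

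Receptor levels stood in the order M1, M3, M4 for Mrc1 (735, 2419 and 4163 CPM, means over 6 pools), Cd163 (20.6, 303 and 620 CPM) and Stab1 (375, 1435 and 2914 CPM). Lyve1 and Colec12 were instead set apart in M4: Lyve1 stood at 0.5, 8.9 and 407 CPM and Colec12 at 8.2, 57.1 and 405 CPM. Msr1 was lower in M1 (58.4 CPM) than in M3 (166 CPM) and M4 (216 CPM). Cd36 (152, 121 and 232 CPM) and Scarb1 (22.5, 39.7 and 38.3 CPM) showed no such order, and their pools overlapped between sub-clusters. The sub-clusters were made without the 9 receptors, but from the same cells, so these values describe them.

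**Figure D2:**
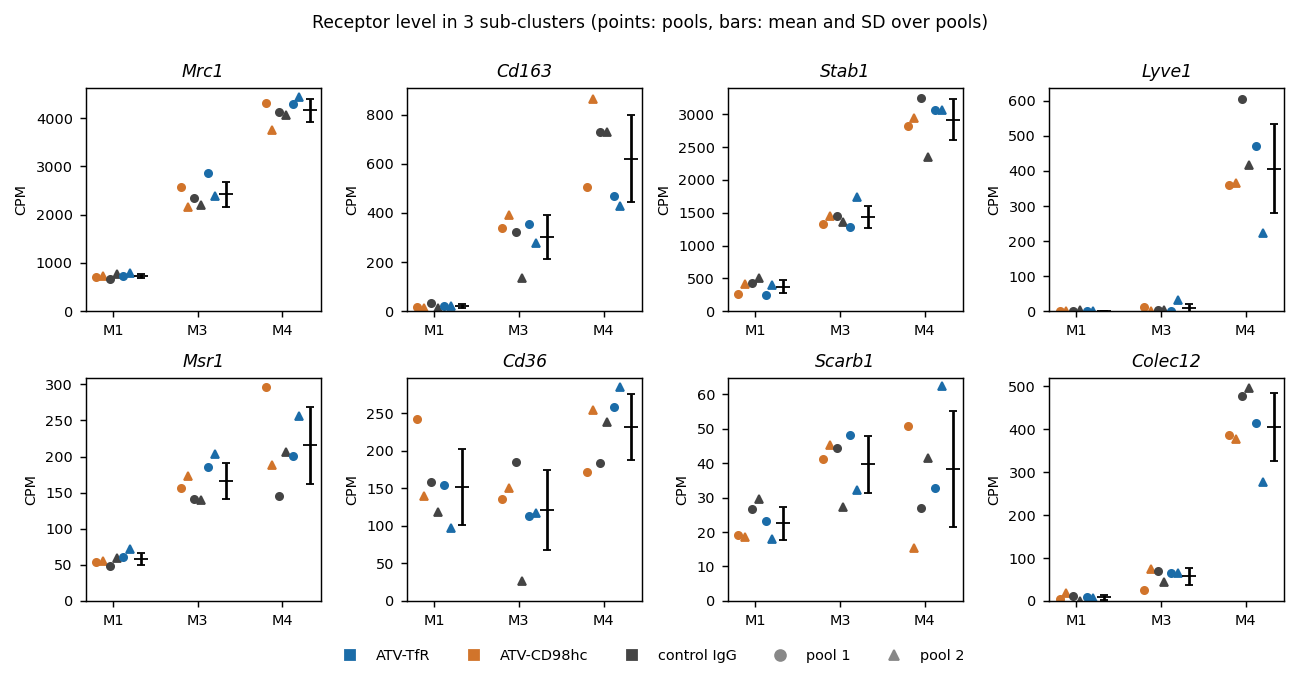
Level of 8 scavenger receptors (CPM) in sub-clusters M1, M3 and M4 of border macrophage-like cells. Points are pools, and the cross bars are the mean and SD over 6 pools. Mrc1, Cd163 and Stab1 rise in 3 steps, while Lyve1 and Colec12 are high in M4 alone.

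The sub-clusters were not spread evenly over the dye bins, in any treatment. M3 made up 64.5% and 61.6% of border macrophage-like cells in the high bins of control IgG (pools 1 and 2), 67.9% and 54.5% in those of ATV-CD98hc and 45.4% and 46.2% in those of ATV-TfR. In the low bins M3 held 7.3% and 7.5%, 10.8% and 3.6%, and 7.8% and 5.4% of the class in the same order of treatments. Every high library thus lay above every low library. M4, the Lyve1 side, went the other way: it held 60.6% and 43.9% in the low and 1.7% and 1.4% in the high bins of control IgG, 38.6% and 42.2% against 4.9% and 5.8% in ATV-CD98hc, and 39.1% and 39.3% against 20.4% and 8.8% in ATV-TfR. M1 held most cells of the negative bins of ATV-TfR (68.9% and 76.7%), 41.4% in the single negative library of control IgG, and most in the thin negative libraries of ATV-CD98hc (61.1% of 18 cells and 75% of 8 cells).

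**Figure D3:**
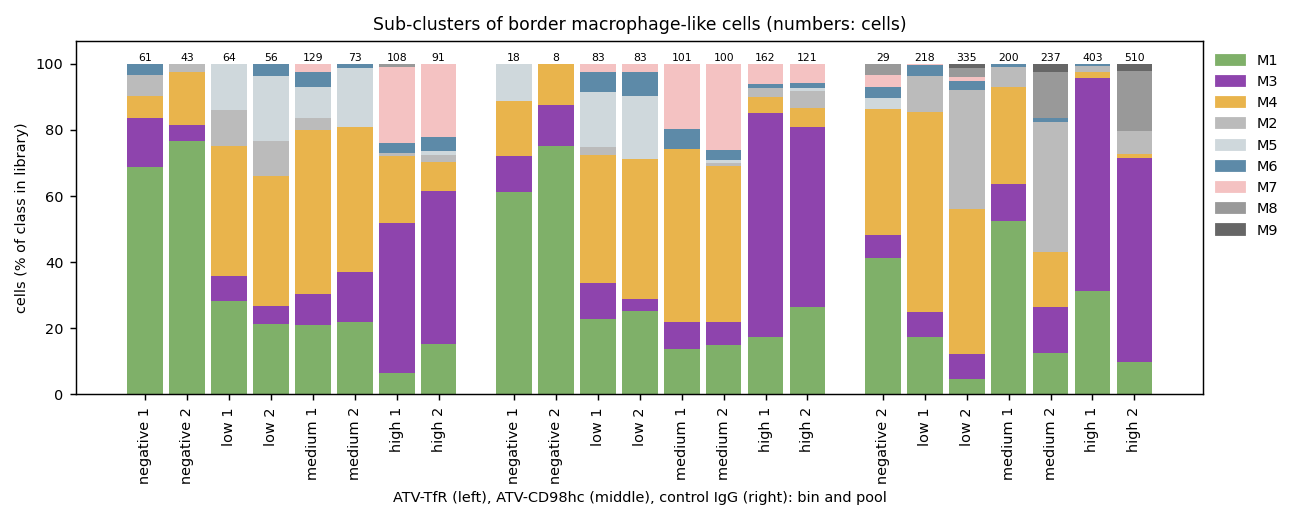
Share (%) of each sub-cluster among border macrophage-like cells, 1 bar per library, with the number of cells above the bar. M3 (purple) widens in the high bins of all 3 treatments, M4 (yellow) is wide in the low bins of all 3 and in the medium bins of both targeted antibodies, and M1 (green) leads the ATV-TfR negative bin; M8 and M9 (dark greys) come from control IgG replicate 2.

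Control IgG addresses uptake of an antibody without a brain target. Among its border macrophage-like cells, Lyve1 and Colec12 were far lower in the high than in the low bin. The other 6 receptors tested did not differ past the threshold in the fit without the pool as a block. The test was the edgeR quasi-likelihood test on UMIs summed per library, with Benjamini-Hochberg adjusted p under 0.05 over 8897 genes. With the pool as a block, where 452 genes were called, Cd163 passed as well, as given below. Lyve1 stood at 328 and 163 CPM in the low, 135 and 64.6 CPM in the medium and 2.2 and 4.9 CPM in the high libraries of pools 1 and 2. The high libraries, with 403 and 510 cells, held 2 and 8 Lyve1 UMIs, and the bins did not overlap. Lyve1 passed the filter on low counts through its level in other bins. The log2 difference, high minus low, was -5.82 ± 0.66 (SE; adjusted p = 1.5e-05), and it was -4.95 without control IgG replicate 1 and -6.99 without replicate 2.

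Colec12 stood at 219 and 200 CPM in the low, 168 and 92.1 CPM in the medium and 37.3 and 21.9 CPM in the high libraries, again without overlap. Its log2 difference was -2.83 ± 0.34 (SE; adjusted p = 2.8e-05), -3.14 without replicate 1 and -2.53 without replicate 2. The single negative library stood as low in Colec12 as the high ones, at 36.4 CPM (4 UMIs), and at 27.3 CPM in Lyve1, so neither gene was highest in the negative bin. Both calls held in 14 of 14 alternative settings, with adjusted p up to 0.00012 for Lyve1 and 0.0025 for Colec12. They make 2 of 8 receptors tested as lower and 0 as higher, against 1.2% of all 8897 genes called in either direction and 1.06% called lower. The median over the 8 receptors was -0.55, and over all genes 0.00. Over the same bins the summed markers of the MHC class II low side fell from 2424 to 3534 CPM in the low libraries to 931 to 1511 CPM in the high libraries of border macrophage-like cells. With sub-clusters M1, M3, M4 and M6 alone, Lyve1 gave -5.89 and Colec12 -3.10.

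In control IgG, Mrc1, Stab1, Cd163, Cd36 and Msr1 did not pass the threshold between low and high in the fit without the pool as a block. Mrc1 stood at 2344 and 1697 CPM in the low, 1479 and 771 CPM in the medium and 1591 and 1127 CPM in the high libraries (log2 difference -0.54 ± 0.29 SE, adjusted p = 0.59). Stab1 stood at 1665 and 1105, 1164 and 682, and 1068 and 790 CPM in the same order (-0.55 ± 0.28 SE, adjusted p = 0.57). Both genes were lower in the high than in the low library of each pool, but neither difference passed. Cd163 stood at 442 and 257 CPM in the low and 196 and 75.5 CPM in the high libraries, a log2 difference of -1.35 (adjusted p = 0.067). It passed with the pool as a block (-1.42, adjusted p = 3.3e-06), without a filter on low counts, with doublets kept, with sub-clusters M1, M3, M4 and M6 alone and without control IgG replicate 1 (-1.73, adjusted p = 0.010), but not without replicate 2 (-1.16, adjusted p = 0.41). Cd36 and Msr1 gave -0.16 ± 0.54 and -0.09 ± 0.27 (SE). Cd36 split by pool, with 190 CPM in the high library of pool 1 and 26.8 CPM in that of pool 2, and gave -2.00 without replicate 1 (adjusted p = 0.0047) and 0.63 without replicate 2 (adjusted p = 1.0).

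Against the single negative library of control IgG, which held 29 cells and is assumed to vary like the other groups, no receptor differed past the threshold (2.51% of all genes did), and 1142 of 8897 genes had an unadjusted p under 0.05. With the pool as a block, Cd163 (-1.67, adjusted p = 0.0029) and Cd36 (-2.36, adjusted p = 0.0058) were lower in the high bin. Lyve1 in that library rested on 3 UMIs and Colec12 on 4.

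In ATV-TfR the negative bin stood out, and 2 of 8 receptors rose from it to the high bin, with 9.12% of all genes called in either direction and 5.36% called higher. Cd163 stood at 24.3 and 18.8 CPM in the negative, 188 and 107 CPM in the low, 232 and 255 CPM in the medium and 244 and 123 CPM in the high libraries. The negative libraries, which held few Cd163 UMIs, lay below all others. The log2 difference, high minus negative, was 2.80 ± 0.63 (SE, adjusted p = 0.0041), and it no longer passed without ATV-TfR replicate 1 (2.54, adjusted p = 0.32) or without replicate 2 (3.01, adjusted p = 0.059). Stab1 stood at 320 and 539, 1091 and 873, 1395 and 1404, and 1498 and 962 CPM in the same order of bins, a log2 difference of 1.29 ± 0.30 (SE, adjusted p = 0.0057). Without replicate 1 it was 0.69 (adjusted p = 0.54), and without replicate 2 it was 1.93 (adjusted p = 0.016).

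With the pool as a block, Mrc1 (0.75, adjusted p = 0.024) and Colec12 (1.83, adjusted p = 0.015) joined them. Mrc1 stood at 717 and 909 CPM in the negative and 2086 and 1204 CPM in the high libraries, and Colec12 at 24.3 and 6.3 CPM against 107 and 32.4 CPM, in both cases without overlap. Colec12 rests on few UMIs in the negative libraries. Summed endothelial markers (12 genes) stood at 12.5 to 36.5 CPM in the negative and 9261 to 10984 CPM in the high libraries of this class, and sub-cluster M7, which carries endothelial RNA, held 23.1% and 22% of the high libraries. The difference in Cd163 was 3.37 and in Stab1 1.78 with sub-clusters M1, M3, M4 and M6 alone, where M7 is absent. M1, which held most cells of the negative libraries, is kept there, and its part in these differences was not tested. The high bin of ATV-TfR had 108 and 91 cells of the class and the negative bin 61 and 43.

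From the low to the high bin, Lyve1 was also lower in both targeted antibodies and Colec12 in ATV-TfR, past the threshold in the fit with the pool as a block but not in the fit without it. The calls in ATV-TfR were also made without a filter on low counts and without either pool of control IgG, and that in ATV-CD98hc without a filter and with doublets kept. Lyve1 stood at 12.2 and 50.2 CPM in the negative (3 and 8 UMIs), 88.8 and 77.6 CPM in the low, 278 and 47.3 CPM in the medium and 16.7 and 10.8 CPM in the high libraries of ATV-TfR, and the high libraries lay below all low ones but overlapped with the negative ones. The log2 difference was -2.60 ± 0.90 (SE, adjusted p = 0.074), and with the block -2.67 (adjusted p = 0.0060). It rests on few UMIs: the whole high libraries of ATV-TfR held 17 and 10 Lyve1 UMIs, and 15 of these lay in endothelial-like cells. Colec12 went from 183 and 126 CPM to 107 and 32.4 CPM (-1.17 ± 0.42 SE, adjusted p = 0.088; with the block -1.22, adjusted p = 0.0068). With all pools and the filter on low counts, no receptor passed in ATV-TfR without the block, where 9.03% of genes did. In ATV-CD98hc, Lyve1 stood at 45.1 and 149 CPM in the low, 168 and 119 CPM in the medium and 39.0 and 24.1 CPM in the high libraries (-1.64 ± 0.69 SE, adjusted p = 0.20; with the block -1.61, adjusted p = 0.036). Colec12 there stood at 94.1 and 106 CPM in the low and 58.5 and 55.1 CPM in the high libraries (-0.89 ± 0.43 SE, adjusted p = 0.29). With the filter on low counts and doublets removed, no receptor passed in ATV-CD98hc without the block, where 5.75% of genes did. The change in Lyve1 differed from that in control IgG by 3.22 ± 1.36 in ATV-TfR (SE, adjusted p = 0.26) and by 4.18 ± 1.04 in ATV-CD98hc (SE, adjusted p = 0.057), neither past the threshold.

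Astrocyte RNA moved with these bins: the summed astrocyte markers of the class stood at 4135 to 5686 CPM in the low and 80.1 to 346 CPM in the high libraries of ATV-TfR, at 3917 to 4090 CPM and 41.4 to 410 CPM in ATV-CD98hc, and at 0 to 12.1 CPM and 3.7 to 4.4 CPM in control IgG. Endothelial RNA moved too: the summed endothelial markers went from 36.5 and 43.6 CPM in the low to 9261 and 10984 CPM in the high libraries of ATV-TfR, from 805 and 1157 CPM to 2671 and 3660 CPM in ATV-CD98hc, and from 238 and 419 CPM to 27.4 and 78.6 CPM in control IgG. The part of either in the differences was not tested. In control IgG, 4 to 10 of the 10 astrocyte markers were at 0 in the libraries of those bins.

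**Figure D4:**
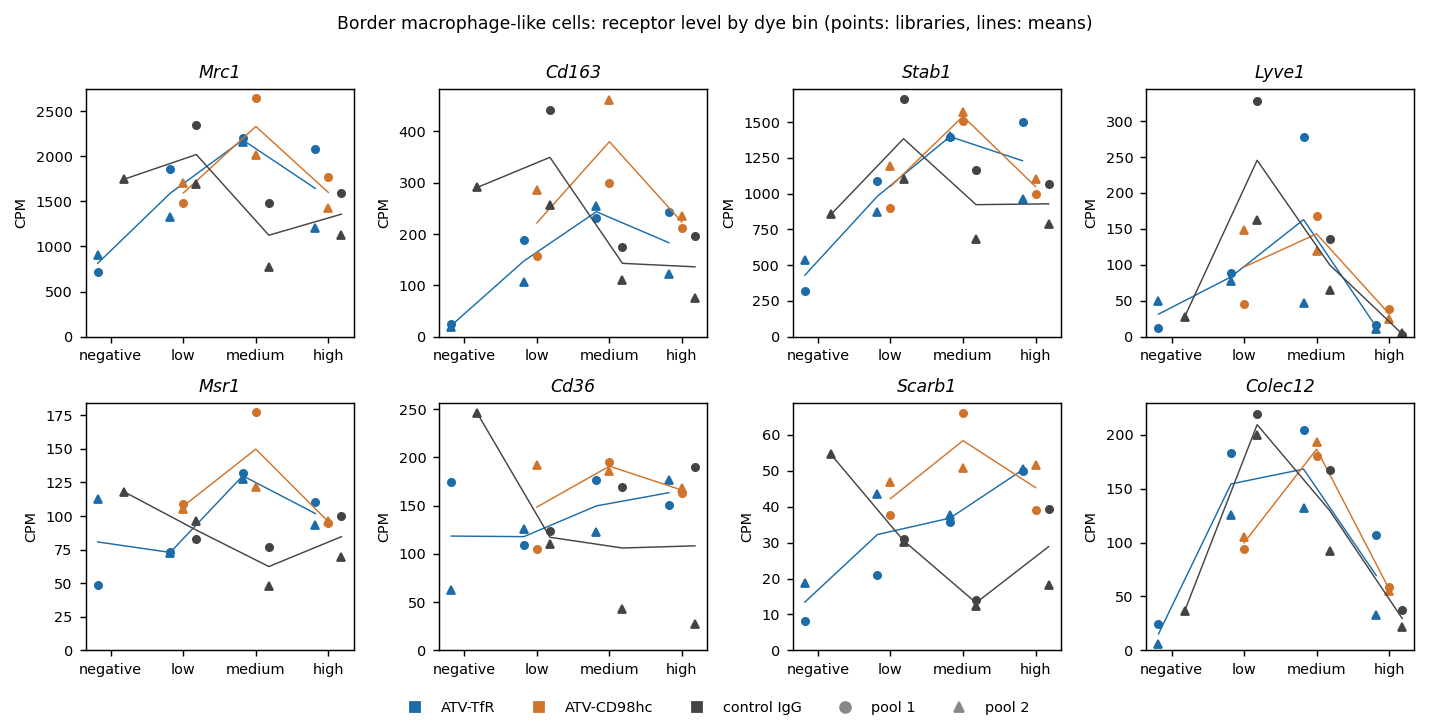
Level of 8 scavenger receptors (CPM, linear axes from 0) in border macrophage-like cells by dye bin. Points are libraries with at least 20 cells of the class and lines are means per treatment. Lyve1 and Colec12 are lower in the high than in the low bin of all 3 treatments, Cd163 and Stab1 start low in the ATV-TfR negative bin, and the medium bin is the highest for Mrc1 in both targeted antibodies.

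Within sub-clusters, Lyve1 was followed in M4 and M3. Inside M4, Lyve1 stood at 657 and 427 CPM in the low libraries of control IgG, 273 and 231 CPM in those of ATV-TfR and 158 and 448 CPM in those of ATV-CD98hc. The 22 cells of M4 in the high library of ATV-TfR pool 1 stood at 38 CPM, and other high libraries had under 20 cells of it. Inside M3, the sub-cluster that fills the high bins, Lyve1 stood between 0 and 5 CPM in all high libraries.

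High bins of the 3 treatments were then compared with each other, since they were gated at the same dye limits for antibodies of different specificity. No receptor of 8 passed the threshold in any of the 3 comparisons, where 12.1% (control IgG against ATV-TfR), 4.16% (control IgG against ATV-CD98hc) and 1.3% (ATV-TfR against ATV-CD98hc) of genes were called and 2027, 1056 and 1162 genes had an unadjusted p under 0.05. Under other settings some receptors did pass: against ATV-TfR 4 without control IgG replicate 1, and 1 each without ATV-TfR replicate 2, without a filter on low counts, with doublets kept and at clustering resolution 2. Against ATV-CD98hc 2 passed without control IgG replicate 1, and 1 each without ATV-TfR replicate 1, with DESeq2, without a filter and with doublets kept. Counts of all genes moved as well: with doublets kept 1809 and 940 genes were called in these 2 comparisons, and with sub-clusters M1, M3, M4 and M6 alone 58 and 6. The receptor counts under other settings are not read as a result. With all pools, Colec12 and Lyve1 came closest to the threshold. Colec12 was lower in control IgG than in ATV-TfR by a log2 difference of -1.20 ± 0.42 (SE, adjusted p = 0.066). Lyve1 was lower in control IgG than in ATV-CD98hc by -2.88 ± 0.90 (SE, adjusted p = 0.077). Mrc1 differed by -0.18 ± 0.29 and -0.15 ± 0.29 (SE) in these comparisons and by 0.03 ± 0.29 between the targeted antibodies. Of the changes over bins, the one from negative to high differed between ATV-TfR and control IgG in Cd163, 1 of 8 receptors tested (5.08% of genes were called). That difference was 3.90 ± 0.85 (SE, adjusted p = 0.0064). It rests on 1 negative library of control IgG (29 cells, assumed to vary like the other groups), in which Cd163 stood at 291 CPM, and without ATV-TfR replicate 1 it was 3.65 (adjusted p = 0.18).

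Related receptors were counted next. From a list of 30 further scavenger and lectin receptors, chosen with earlier results of these data known, 16 were tested in border macrophage-like cells. In control IgG 5 were lower in the high than in the low bin and 0 higher, against 1.06% of all genes called lower, with a median of -0.66 against 0.00 for all genes. They were the lectins Clec10a (-4.75, adjusted p = 1.6e-07), Cd209f (-6.24, adjusted p = 0.00012), Cd209g and Clec4n and the phosphatidylserine receptor Timd4. DESeq2 called 3 as lower and 0 as higher, and the fit with the pool as a block 7 and 0. With sub-clusters M1, M3, M4 and M6 alone, 7 of 14 tested were lower and 2 higher. Clec10a was among the leading genes of M4, and Cd209f, Cd209g and Clec4n among those of M6. The count is therefore not independent of the sub-cluster shares over bins, nor of the earlier results known when the list was chosen. It is not read as support for the changes in Lyve1 and Colec12. Without either pool of control IgG 4 were called: Clec10a, Cd209f and Cd209g held both times, while Timd4 was lost without replicate 1 (-1.58, adjusted p = 0.57) and Clec4n without replicate 2 (-2.30, adjusted p = 0.052). Clec10a (-3.66, adjusted p = 0.0071) and Cd209f (-6.52, adjusted p = 0.0054) were also lower against the negative library. From negative to high in ATV-TfR, 3 of the 16 rose and 3 fell, against 5.36% of all genes called higher and 9.12% in either direction (median 1.03 against 0.05). Without ATV-TfR replicate 1 none of the 16 was called (0 rose and 0 fell; all genes called went from 811 to 158), and without replicate 2 0 rose and 1 fell. DESeq2 called none of the 16 (0 rose and 0 fell), libraries with at least 50 cells gave 0 and 1, resolution 2 gave 4 and 0, and sub-clusters M1, M3, M4 and M6 alone gave 3 and 0 of 14 tested. The LALAPG mutations weaken binding to Fc gamma receptors, whose genes were counted separately. Of 7 Fc receptor genes 6 were tested. In control IgG 0 were called in either contrast, where 1.2% (high minus low) and 2.51% (high minus negative) of all genes were, shares at which a count of 0 among 6 is not informative. From negative to high in ATV-TfR 2 of 6 were called, against 9.12% of all genes. The neonatal Fc receptor Fcgrt, which endothelium also carries, rose by 1.86 ± 0.40 (SE, adjusted p = 0.0025), over bins in which the summed endothelial markers of the class were also higher, as given above. It was 1.30 with sub-clusters M1, M3, M4 and M6 alone (adjusted p = 0.022), 2.29 with replicate 2 of ATV-TfR left out (adjusted p = 0.043) and 1.48 with replicate 1 left out, where it did not pass (adjusted p = 0.28). The signalling chain Fcer1g fell by 0.91 (adjusted p = 0.015), a call lost without either pool (adjusted p = 0.52 and 0.062), at resolution 2 (0.33) and in those sub-clusters alone (0.35).

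Scarb1 was followed in the endothelium, which is known to carry both target receptors. Cluster 20, an endothelial-like cluster led by Gkn3, Edn1 and Bmx, genes known from arterial endothelium, had among its 10 leading genes 1 of the neuron marker list used here (Stmn2) and 0 of the endothelial list. By the rule for comparing classes, the clusters were therefore compared one by one. By level, cluster 18, led by the fenestration gene Plvap, stood highest at 343 ± 58.4 CPM (5 pools), followed by clusters 23 (178 ± 34.7), 21 (152 ± 17.2), 22 (122 ± 14.9) and 20 (104 ± 8.5, each over 6 pools). Within cluster 20, Scarb1 rose from the low to the high bin in both targeted antibodies, but not past the threshold from the negative bin. It stood at 55.2 and 69.9 CPM in the low, 85.3 and 91.3 CPM in the medium and 104 and 101 CPM in the high libraries of ATV-TfR, bins that did not overlap. The log2 difference, high minus low, was 0.84 ± 0.21 (SE, adjusted p = 0.0067), with 9.99% of 13929 genes called. Without ATV-TfR replicate 1 it was 0.64 (adjusted p = 0.53), and without replicate 2 it was 0.97 (adjusted p = 0.16).

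In ATV-CD98hc, Scarb1 of cluster 20 stood at 87.6 and 80.8 CPM in the low, 119 and 103 CPM in the medium and 132 and 109 CPM in the high libraries, again without overlap between low and high. The log2 difference was 0.58 ± 0.17 (SE, adjusted p = 0.031), with 8.6% of genes called, and it passed without either ATV-CD98hc pool (0.50 and 0.64) but not without ATV-TfR replicate 1 (0.59, adjusted p = 0.13) or replicate 2 (0.58, adjusted p = 0.14). Against the negative bins, at 78.6 and 55.9 CPM in ATV-TfR and 103 and 94.3 CPM in ATV-CD98hc, the differences of 0.74 ± 0.27 (SE, adjusted p = 0.098) and 0.40 ± 0.27 (SE, adjusted p = 0.56) did not pass. In cluster 21, led by Slc38a5, Vwf and Car4, Scarb1 gave -0.01 ± 0.30 in ATV-TfR (SE, adjusted p = 0.99; 0.58% of genes called) and 0.29 ± 0.18 in ATV-CD98hc (SE, adjusted p = 0.56; 6.95% called). The low libraries of ATV-TfR held only 30 and 21 cells of cluster 21, with 14 and 7 Scarb1 UMIs. Clusters 22 and 23 gave 0.24 ± 0.21 and 0.35 ± 0.19 (SE) in ATV-CD98hc, neither past the threshold (2.90% and 6.89% called). The differences between clusters were not tested.

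**Figure D5:**
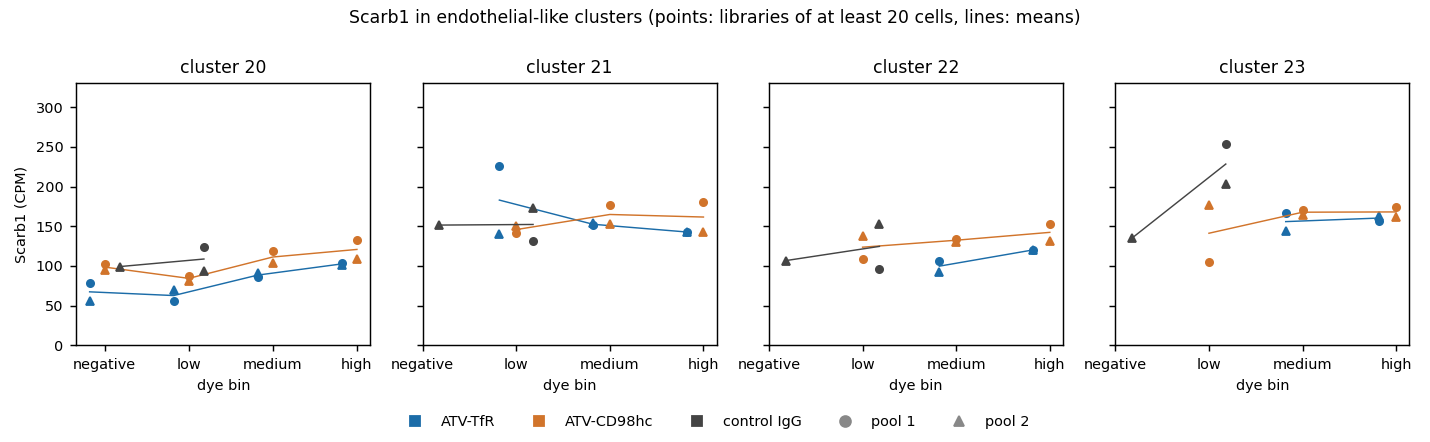
Scarb1 level (CPM, axes from 0) in 4 endothelial-like clusters by dye bin. Points are libraries with at least 20 cells of the cluster and lines are means per treatment. In cluster 20 the high libraries of both targeted antibodies lie above the low ones, while the steps tested in cluster 21 (both antibodies) and clusters 22 and 23 (ATV-CD98hc alone) did not pass the threshold.

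Colec12 was followed in the stromal classes, where it fell over the bins of fibroblast-like cells. In the negative bins it stood at 1590 and 1132 CPM in ATV-CD98hc, 1622 and 1460 CPM in ATV-TfR and 1539 CPM in control IgG, and in the high bins at 708 and 526 CPM in ATV-CD98hc and 510 and 657 CPM in control IgG, without overlap. The log2 difference, high minus negative, was -1.14 ± 0.24 in ATV-CD98hc (SE, adjusted p = 0.0041; 6.17% of genes called) and -1.32 ± 0.27 in control IgG (SE, adjusted p = 0.0024; 9.71% called). The negative bin of control IgG is 1 library of 78 cells, assumed to vary like the other groups. Without ATV-CD98hc replicate 1 the first was -1.11 (adjusted p = 0.086). The bins hold different fibroblasts: negative cells were mostly of cluster 19, led by Slc6a13 and Prg4. High cells of both control IgG and ATV-CD98hc were mostly of cluster 26, led by Coch and Moxd1 (72 of 95 and 73 of 114 cells in ATV-CD98hc). At resolution 2, Slc6a13 and Lama1 led a fibroblast-like cluster of 843 cells, and Prg4 and Ccn3 an unnamed cluster of 384 cells. These genes all lead cluster 19, and the part of such a mix in its values was not tested. Within cluster 19, Colec12 stood at 1613 and 1161 CPM in the negative, 1089 and 911 CPM in the low and 488 and 183 CPM in the high libraries of ATV-CD98hc. High minus negative there was -2.13 ± 0.53 (SE, adjusted p = 0.019; 5.82% of genes called), and -1.71 without ATV-CD98hc replicate 2 (adjusted p = 0.20). Within cluster 26, high minus low was -0.40 ± 0.22 in control IgG (SE, adjusted p = 0.76; with the pool as a block 0.030; 1.08% called) and 0.12 ± 0.29 in ATV-CD98hc (SE, adjusted p = 0.96; 1.49% called).

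In pericyte-like cells, Colec12 stood at 944 and 763 CPM in the negative and 428 and 407 CPM in the high libraries of ATV-TfR, and at 960 and 779 CPM against 433 and 388 CPM in ATV-CD98hc. The log2 differences were -0.92 ± 0.20 (SE, adjusted p = 0.0012; 22.4% of genes called) and -0.99 ± 0.20 (SE, adjusted p = 0.00091; 19.9% called). Stab1 (2.17 and 2.90) and Scarb1 (0.72 and 1.07) rose over the same bins. In ATV-TfR the calls of Colec12 (adjusted p = 0.17 and 0.072) and Scarb1 (adjusted p = 0.23 and 0.42) were lost without replicate 1 and without replicate 2, while that of Stab1 held (adjusted p = 0.040 and 0.0026). In ATV-CD98hc Scarb1 was lost without replicate 1 (0.83, adjusted p = 0.063). Summed endothelial markers in pericyte-like cells stood at 300 to 1179 CPM in the negative and 16825 to 19619 CPM in the high bins. With classes from a finer clustering (resolution 2), Colec12 gave -0.15 and -0.12, and none of these receptors was called. Counts of all genes called there fell from 2675 to 260 in ATV-TfR and from 2380 to 70 in ATV-CD98hc. The class then held 4005 cells in place of 6629. A cluster of 2647 cells with both pericyte and endothelial markers was unnamed there and left out. The part of such mixed cells in the differences was not tested.

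In astrocyte-like cells Colec12 separated clusters more than bins. Clusters 10, 5 and 9 stood at 99.4 ± 13.8, 78.1 ± 4.5 and 54.0 ± 2.1 CPM, and clusters 4, 2 and 1 at 13.9, 13 and 7.0 CPM (means over pools). Over the class, Colec12 stood at 34.6 and 24.9 CPM in the negative and 67.8 and 68.7 CPM in the high libraries of ATV-CD98hc (1.12 ± 0.22 SE, adjusted p = 0.0026; 7.9% of genes called), and without ATV-CD98hc replicate 2 the difference was 0.95 (adjusted p = 0.12). In cluster 5 alone the difference was -0.08 ± 0.20 (SE, adjusted p = 0.94; 1.1% called) and in cluster 10 alone -0.51 ± 0.37 (SE, adjusted p = 0.71; 0.587% called). In cluster 1, where it is lowest, Colec12 fell in ATV-TfR from 10.6 and 11.7 CPM in the negative to 1.9 and 4.0 CPM in the high libraries, which rest on 4 and 6 UMIs (-1.84 ± 0.43 SE, adjusted p = 0.0051; 15.7% called). Without ATV-TfR replicate 1 it was -1.44 (adjusted p = 0.24). The high bin of ATV-CD98hc in cluster 1 was 1 library of 24 cells with 1 Colec12 UMI. In cluster 10 the high libraries of ATV-TfR held 49 and 26 cells, with 24 and 4 UMIs. Over the class, the change in Colec12 differed between ATV-TfR and ATV-CD98hc by -1.37 from negative to high (adjusted p = 0.0051, 7.56% of genes called). From low to high it differed by -0.99 (adjusted p = 0.030, 7.1% called). Neither difference passed in clusters 1, 5 or 10 alone, which is not informative in clusters 1 and 10. The first did not pass when replicate 2 of ATV-TfR (adjusted p = 0.051) or of ATV-CD98hc (adjusted p = 0.075) was left out, and the other when any 1 of the 4 pools was.

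Stab1 was also followed in microglia-like cells, the class next to border macrophage-like cells in its level. In ATV-CD98hc it stood at 228 and 251 CPM in the negative, 270 and 263 CPM in the low, 201 and 215 CPM in the medium and 192 and 158 CPM in the high libraries. The high libraries lay below the negative ones by a log2 difference of -0.34 ± 0.22 (SE, adjusted p = 0.44), which did not pass, with 6.34% of genes called. In ATV-TfR it stood at 283 and 265 CPM in the negative and 305 and 165 CPM in the high libraries. The latter held 18 and 11 cells of the class, too few for the test, and the bins overlapped.

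Further calls rest on low levels. Scarb1 in astrocyte-like cells rose from negative to high by 1.04 ± 0.20 in ATV-CD98hc (SE, adjusted p = 0.0020; 7.9% of genes called) and by 0.50 ± 0.16 in ATV-TfR (SE, adjusted p = 0.037; 17.5% of genes called), while summed endothelial markers in these cells stood at 9.95 to 13.2 CPM in the negative and 196 to 921 CPM in the high bins. Their part in the rise was not tested. The call in ATV-TfR was lost without replicate 1 (0.40, adjusted p = 0.52), without replicate 2 (0.60, adjusted p = 0.22) and without a filter on low counts (adjusted p = 0.11), and that in ATV-CD98hc without its replicate 1 (0.71, adjusted p = 0.29). In none of clusters 1, 5 and 10 alone did Scarb1 pass. The high bin of ATV-CD98hc in cluster 1 was 1 library of 24 cells. Msr1 in astrocyte-like cells of ATV-CD98hc was called on 4 UMIs in the high bin against 0, and Cd36 in endothelial-like cells of ATV-CD98hc on 5 UMIs against 6. Colec12 in microglia-like cells of ATV-CD98hc was called on 8 UMIs against 3, and without ATV-CD98hc replicate 1 the difference turned from 3.90 to -4.62. Among choroid plexus epithelial-like cells, Scarb1 under ATV-TfR was called on 45 UMIs against 14 (1.68 ± 0.56 SE, adjusted p = 0.029; 23.6% of genes called), and the call was lost without replicate 1 (adjusted p = 0.20) and without replicate 2 (adjusted p = 0.11).

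Whole libraries, with all kept cells summed, show how much receptor RNA each bin holds, and the bins hold the cell classes in different shares. Under control IgG, border macrophage-like cells were 29 of 11255 kept cells in the negative library and 403 of 519 and 510 of 720 in the high libraries. Within that class Mrc1 stood at 1746 CPM in the negative and at 1591 and 1127 CPM in the high libraries. In whole libraries of control IgG, Mrc1 stood at 6.00 CPM in the single negative library (assumed to vary like the other groups), 104 and 90.4 CPM in the low, 196 and 136 CPM in the medium and 839 and 597 CPM in the high libraries (high minus negative 6.84 ± 0.60 SE, adjusted p = 1.1e-07). Cd36 (6.35), Msr1 (6.2), Cd163 (5.22), Lyve1 (4.57), Stab1 (4.26) and Colec12 (1.04) rose with it and Scarb1 fell by 1.02 on the log2 scale, so that 8 of 8 receptors were called, against 36.2% of 21992 genes. Lyve1 and Colec12 were highest in the medium bin: Lyve1 stood at 14.7 and 9.07 CPM in the low, 18.6 and 11.5 CPM in the medium and 1.72 and 3.46 CPM in the high libraries, and Colec12 at 136 and 114, 238 and 326, and 154 and 152 CPM. In ATV-TfR, Scarb1 rose from 27.3 and 25.3 CPM to 121 and 122 CPM (2.51 ± 0.19 SE, adjusted p = 5.9e-09), and Colec12 and Msr1 fell by 1.57 and 0.90 on the log2 scale, with 62.4% of genes called; the call of Msr1 was lost without either pool of ATV-TfR (adjusted p = 0.11 and 0.30). In ATV-CD98hc, Scarb1 (2.81), Msr1 (2.11), Stab1 (1.91), Mrc1 (1.69) and Cd163 (1.19) rose and Colec12 fell by 0.81, with 62.6% called; Cd163 was lost without ATV-CD98hc replicate 2 (0.88, adjusted p = 0.25). The median of all genes was shifted by -0.34 (ATV-TfR), -0.29 (ATV-CD98hc) and -0.26 (control IgG).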

How the data were processed

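Single-cell RNA counts came from 10x libraries. Per the submitters' processing notes, reads were processed with Cell Ranger 7.1.0 and Seurat (versions 4 and 5 are named) on mm10, the GRCm38 mouse genome. The deposited matrix holds UMI counts of 32285 genes in 265025 barcodes. Barcodes with fewer than 500 genes, fewer than 800 UMIs or over 10% mitochondrial UMIs were dropped, which left 249715, of which 15689 called as doublets by Scrublet were removed (0.69% to 12.2% per library; percentile 94 of the score was the limit in 8 libraries where its own threshold failed). Scanpy 1.11.5 gave 27 Leiden clusters (leidenalg 0.10.2) at resolution 1 from 2000 variable genes without the 9 receptors, and 23 were named from marker lists. UMIs were summed per class and library of at least 20 cells and tested with edgeR 4.0.16 (R 4.3.3; TMM factors, filterByExpr, quasi-likelihood test, Benjamini-Hochberg over all genes, all groups with such libraries in 1 fit). Of the 9 receptors, 8 passed the filter in border macrophage-like cells. Alternatives were RLE factors, DESeq2 1.42.0, no filter, 50 cells as minimum, doublets kept, resolution 2, each pool left out, cluster-wise fits and the pool as a block. Bins sorted from 1 pool hold cells of the same animals, per the labels, which gives the pairing. Deviations from group means over 3730 genes correlated by 0.418 to 0.691 between bins in control IgG, by -0.03 to 0.157 in ATV-TfR and by -0.01 to 0.470 in ATV-CD98hc. Gene positions are those of GENCODE release M21. The fit was tested on data simulated for border macrophage-like cells of control IgG, where 6.29% of called genes were false. The receptors and gene lists were chosen with earlier results of these data known. Named genes are the 9 receptors, the 3 genes of highest correlation with each over class and pool sums, and list genes called in both control IgG comparisons. Other genes named were chosen after their values were seen.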

Additional observations from a re-analysis of the deposited data

Results flagged for a closer look

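Within the cell classes, 3 differences between treatments in a receptor's change over bins passed a test of the difference itself. Whole libraries, which hold the classes in different shares, are not counted here.
In border macrophage-like cells, the change in Cd163 from the negative to the high bin was 3.90 larger on the log2 scale in ATV-TfR than in control IgG (edgeR quasi-likelihood test, adjusted p = 0.0064), and without ATV-TfR replicate 1 the difference was 3.65 (adjusted p = 0.18). Cd163 stood at 24.3 and 18.8 CPM, on few UMIs, in the negative libraries of ATV-TfR. It stood at 291 CPM in the single negative library of control IgG (29 cells, assumed to vary like the other groups). The high libraries stood at 244 and 123 CPM in ATV-TfR and at 196 and 75.5 CPM in control IgG. Sub-cluster M1, rich in MHC class II, held 68.9% and 76.7% of the class in the negative libraries of ATV-TfR and 41.4% in that of control IgG. Its part in the difference was not tested. Since mice of different genotype received the antibodies, treatment and genotype cannot be told apart.

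In astrocyte-like cells, Colec12 changed differently in ATV-TfR and ATV-CD98hc, by -1.37 from negative to high (adjusted p = 0.0051) and by -0.99 from low to high (adjusted p = 0.030), ATV-TfR minus ATV-CD98hc. In ATV-TfR it stood at 37.2 and 36.8 CPM in the negative and 32.5 and 23.8 CPM in the high libraries, and in ATV-CD98hc at 34.6 and 24.9 CPM against 67.8 and 68.7 CPM. In cluster 5 alone the first difference was 0.09, and in cluster 10 alone the values were 1.13 and 0.68, none past the threshold. The high libraries of ATV-TfR held 49 and 26 cells of cluster 10, with 24 and 4 Colec12 UMIs. The difference from negative to high did not pass without ATV-TfR replicate 2 (-1.18, adjusted p = 0.051) or ATV-CD98hc replicate 2 (-1.20, adjusted p = 0.075). The difference from low to high did not pass without either pool of ATV-TfR or either pool of ATV-CD98hc. The bins hold the astrocyte-like clusters in different shares.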

How the results depend on the processing

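Lyve1 and Colec12 of border macrophage-like cells kept direction and call between the high and low bins of control IgG in 14 of 14 alternatives, whereas many counts of called receptors moved by 1 to 4 genes. These counts, here and for the other classes, are given without the share of all genes called under each setting, which also moved. They are not read as results about the receptors. In border macrophage-like cells, 2 receptors were called from negative to high in ATV-TfR, and 4 without a filter on low counts, with the replicate block, at resolution 2 and with sub-clusters M1, M3, M4 and M6 alone, and leaving out 1 pool gave 0 to 3. For high minus low, control IgG gave 2 to 4 (2 with all pools). ATV-TfR gave 2 in place of 0 without a filter and with the replicate block, and 0 to 2 without a pool. ATV-CD98hc gave 1 in place of 0 without a filter, with the replicate block and with doublets kept. Control IgG high minus negative gave 2 in place of 0 with the replicate block and 0 to 2 without a pool. Between high bins, control IgG against ATV-TfR gave 1 in place of 0 without a filter, with doublets kept and at resolution 2, and 0 to 4 without a pool, and control IgG against ATV-CD98hc gave 1 with DESeq2, without a filter and with doublets kept, and 0 to 2 without a pool. The difference in high minus negative between ATV-TfR and control IgG gave 2 in place of 1 with doublets kept and 0 to 3 without a pool, and that in high minus low gave 3 in place of 0 without a filter, 1 with doublets kept and at resolution 2, and 0 to 3 without a pool.

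In the other classes, high minus negative moved as follows. Astrocyte-like cells gave 5 in place of 3 in ATV-CD98hc with DESeq2 and without a filter (1 to 3 without a pool) and 0 in place of 1 in ATV-TfR without a filter (0 to 1). Choroid plexus epithelial-like cells gave 2 in place of 0 in ATV-CD98hc without a filter (0 to 2), and 0 to 1 without a pool in ATV-TfR. Fibroblast-like cells gave 3 in place of 1 in control IgG without a filter and with doublets kept and 2 with the replicate block (1 to 3), and 0 to 1 without a pool in ATV-CD98hc. Microglia-like cells gave 2 in place of 1 in ATV-CD98hc with DESeq2 and 0 with doublets kept (0 to 1). Pericyte-like cells gave 0 in place of 3 at resolution 2 in both antibodies (1 to 4 in ATV-TfR, 2 to 3 in ATV-CD98hc). Endothelial-like cells gave 1 with RLE factors and 2 with DESeq2 in place of 0 in ATV-TfR (0 to 1), and 0 to 1 without a pool in ATV-CD98hc. Their high minus low gave 0 in place of 1 with RLE factors and doublets kept and 2 with the replicate block in ATV-CD98hc (0 to 1), and 0 to 1 without a pool in ATV-TfR.

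Values that turned were Scarb1 in astrocyte-like cells of ATV-CD98hc (-0.42 in cluster 1 alone), Colec12 there (-0.078 in cluster 5, -0.51 in cluster 10) and its differences between ATV-TfR and ATV-CD98hc (0.088 in cluster 5 and 1.13 in cluster 10 for high minus negative, 0.68 in cluster 10 for high minus low), Scarb1 in endothelial-like cells of ATV-TfR (-0.014 in cluster 21), Scarb1 in pericyte-like cells of ATV-TfR (-0.23 at resolution 2) and Colec12 in microglia-like cells of ATV-CD98hc (-4.62 without replicate 1 and 4.65 without replicate 2). The high bin of ATV-CD98hc in cluster 1 was 1 library of 24 cells. The cause of these turns was not tested. Levels in the negative bin alone were 1124 CPM for Mrc1, 111 for Cd163, 571 for Stab1 and 29.9 for Lyve1 in border macrophage-like cells and 1469 for Colec12 in fibroblast-like cells, where resolution 2 gave 981 CPM.

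Counts of all genes called in border macrophage-like cells ranged from 32 (without control IgG replicate 2) to 452 (replicate block) around 107 for control IgG high minus low, and from 158 (without ATV-TfR replicate 1) to 1083 (doublets kept) around 811 for ATV-TfR high minus negative. With sub-clusters M1, M3, M4 and M6 alone, control IgG against ATV-TfR high bins fell from 1075 to 58 genes. In endothelial-like cells the median of all genes for high minus negative lay between -0.14 and 0.33 over the alternatives in ATV-TfR. The cluster-wise fits, the restriction to 4 sub-clusters and high minus low in the targeted antibodies were chosen after seeing the data. Depth limits the thin groups: both negative libraries of ATV-CD98hc held under 20 border macrophage-like cells and were not tested, the high libraries of control IgG held 2 and 8 Lyve1 UMIs, and in data simulated for control IgG high minus low 38% of 2-fold and 96% of 4-fold changes were recovered.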

Other observations

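Leukocytes outside the border macrophage-like class carried 1 or a few receptors of the set. They lay in an unnamed cluster whose sub-clusters are few cells from all libraries together, so the values are sums over pools with no test. A monocyte or dendritic cell-like sub-cluster of 179 cells, led by Retnla, Mgl2 and Cd209a, had Mrc1 at 370 CPM (339 UMIs) and Stab1 at 12.0 CPM (11 UMIs). Another of 57 cells, led by Clec9a and Xcr1, genes of cross-presenting dendritic cells, had Cd36 at 345 CPM (134 UMIs) and 0 UMIs of Mrc1, Stab1 and Msr1. A sub-cluster of 112 cells, led by Adgre4, Cd300e and Treml4, had Cd36 at 339 CPM, Scarb1 at 153 CPM and Msr1 at 68.6 CPM with 1 UMI of Mrc1. A sub-cluster of 97 cells, led by Lyz2 and F13a1, had Msr1 at 114 CPM (51 UMIs) and 3 UMIs of Cd36.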
